A study of Homo sapiens with 6 samples.

Results

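The genes described are 10 members of the ephrin and Eph receptor family, the receptors EPHA1, EPHA2, EPHA4, EPHB2 and EPHB4 and the ligands EFNA1, EFNA4, EFNA5, EFNB1 and EFNB2, taken by gene symbol from a table of 16200 genes. They were measured by sequencing poly(A)-enriched RNA of RBE, an established human cholangiocarcinoma (bile duct cancer) cell line, in 3 libraries labelled sgKCNQ3 and 3 labelled NC. The first label reads as a guide RNA (sg) directed at KCNQ3, which encodes a voltage-gated potassium channel subunit. Neither label carries a further treatment, time or clone, and the labels do not say whether the guide directed a nuclease. Separate cultures are not mentioned in the labels, so p-values cover only differences among these 6 libraries, which may be technical in origin.

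Eph receptors are receptor tyrosine kinases whose ligands, the ephrins, sit on the surface of neighbouring cells, so that signalling needs cell contact. A-type ephrins are held by a lipid anchor and mostly bind EPHA receptors, whereas B-type ephrins span the membrane and mostly bind EPHB receptors. The receptor signals forward into its own cell through adaptors and Src family kinases, and the bound ephrin signals in reverse into the other. EPHA2 is the family member best known from carcinomas: its transcription responds to RAS-ERK signalling, ephrin-bound EPHA2 restrains that pathway, and EPHA2 without ligand can promote cell migration.

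KCNQ3 mRNA was lower in the libraries labelled sgKCNQ3, at 222, 206 and 191 counts, against 256, 257 and 252 in NC (log2 fold change -0.33, SE 0.0841, edgeR adjusted p 0.00446). Total estimated counts lay between 15601283 and 16089500 per library. Across all genes, 3658 of 12565 tested were called at an adjusted p under 0.05 (29.1%), 1763 higher and 1895 lower in sgKCNQ3. With library size alone as scaling, 64.5% of the calls were higher, against 48.2% with the TMM factors used here. TPM is a level per transcript length, scaled to the same total in each library. On log2(TPM + 1), 80.8% of the calls were higher. The median log2 fold change over all tested genes was 0.065 on that scale, against -0.0074 with the TMM factors. Differences between the groups in TPM therefore include this shift across the table. Summed TPM of 14 biliary epithelial markers was 4967 to 5072 in sgKCNQ3 and 4249 to 4345 in NC, with 8 of the 13 tested called higher and none lower. KRT7 was the most abundant, and the bile duct channel gene CFTR had 3 counts or fewer in every library. Endothelial cells also express EPHB4 and EFNB2; 9 of 10 endothelial markers were in the table, their TPM summed to 0.42 to 0.57 in sgKCNQ3 and 0.24 to 0.35 in NC, and none passed the filter on low counts. KDR, EMCN, TIE1, ERG and PLVAP had at most 3 counts in any library. Of the 10 fibroblast and mural markers, 6 were tested, with 1 called higher and 1 lower. Their TPM summed to 68.6 to 74.6 in sgKCNQ3 and 74.1 to 80.4 in NC, mostly from ACTA2 (mean 64.8). Of the 10 leukocyte markers, 4 were tested, with 2 called lower. Their TPM summed to 81.1 to 89.5 in sgKCNQ3 and 95.6 to 102 in NC. CD68 gave most of that list's TPM, and PTPRC and CD3E had at most 3 counts. The part of these marker changes in the Eph and ephrin results was not tested.

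Among the receptors, EPHA2 RNA fell and EPHB4 RNA rose in sgKCNQ3 cells, while EPHB2 and EPHA4 were not called and EPHA1 was barely detected. Among the ligands, EFNB2 was lower by a small amount and none of EFNA1, EFNA4, EFNA5 and EFNB1 was called. In all, 9 of the 10 genes passed the filter and were tested, and 3 were called, 1 higher and 2 lower, against a background of 29.1% of all tested genes called, 14.0% higher and 15.1% lower. The members' share is therefore near that of the table as a whole. Their median log2 fold change was -0.015, against -0.0074 over all tested genes. In CPM (counts scaled to a common library total) the groups did not overlap for 4 of the 9, against 41.7% of all tested genes.

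**Figure D1:**
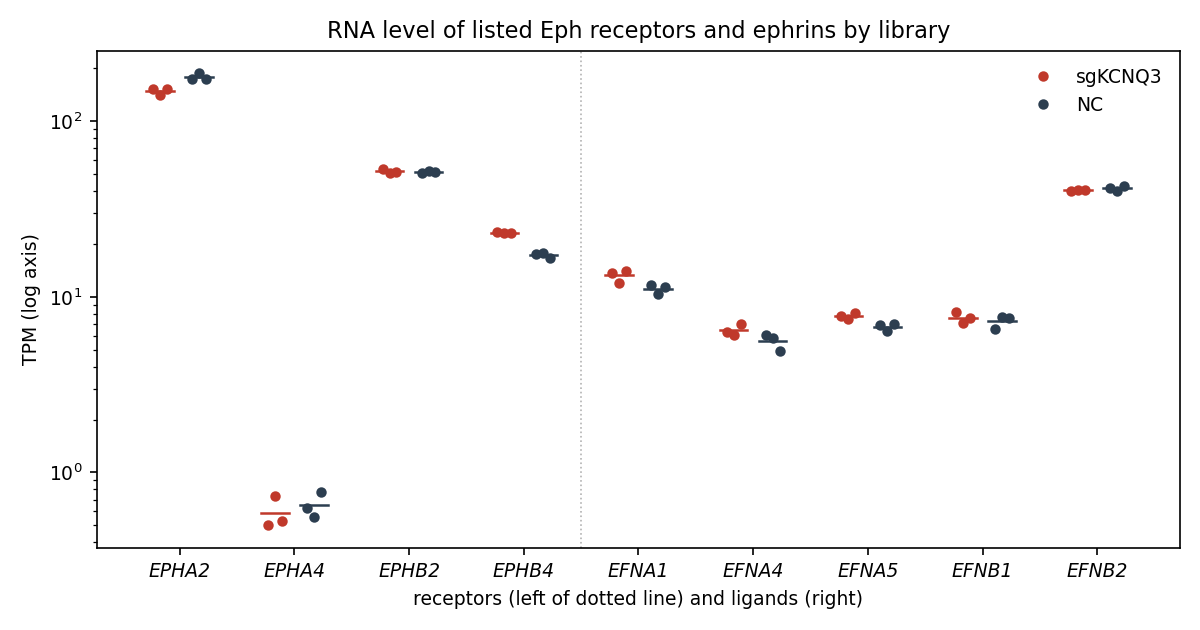
TPM on a log axis for the 9 listed genes that were tested, with 3 sgKCNQ3 libraries (red, left) and 3 NC libraries (dark, right) per gene; points are libraries and lines are group means. EPHA2 is the most abundant, at a mean of 148 TPM in sgKCNQ3 and 178 TPM in NC, and the EPHB4 points of the groups are apart.

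The sequences upstream of EPHA2, EPHB4 and EFNB2 are shown because these 3 members were called in the reported test. Each run holds the 250 bases before the transcription start in RefSeq's table (GRCh38.p14), 5' to 3' in the direction of the gene. Capitals mark matches, on either strand, to the cyclic AMP response element TGACGTCA or to the GC box GGGCGG bound by SP1-type factors.
EPHA2, chr1:16156070-16156319, minus strand: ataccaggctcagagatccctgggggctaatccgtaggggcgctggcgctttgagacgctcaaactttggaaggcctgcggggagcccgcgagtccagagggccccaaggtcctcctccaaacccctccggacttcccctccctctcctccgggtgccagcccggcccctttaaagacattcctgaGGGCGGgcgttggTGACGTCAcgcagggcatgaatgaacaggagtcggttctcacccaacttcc
EPHB4, chr7:100827524-100827773, minus strand: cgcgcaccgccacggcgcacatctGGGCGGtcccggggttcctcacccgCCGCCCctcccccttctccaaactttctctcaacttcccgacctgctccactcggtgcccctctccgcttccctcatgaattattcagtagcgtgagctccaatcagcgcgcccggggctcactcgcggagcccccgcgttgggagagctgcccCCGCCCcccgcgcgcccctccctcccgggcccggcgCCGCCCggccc
EFNB2, chr13:106535663-106535912, minus strand: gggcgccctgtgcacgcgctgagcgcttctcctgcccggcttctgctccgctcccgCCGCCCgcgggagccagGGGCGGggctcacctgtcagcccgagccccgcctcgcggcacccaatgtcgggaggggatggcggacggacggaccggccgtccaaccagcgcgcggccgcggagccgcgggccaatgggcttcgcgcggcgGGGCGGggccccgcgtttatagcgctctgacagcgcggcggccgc
The EPHA2 window held the cyclic AMP response element once, starting 51 bases before the start, and none of the other 9 members' windows held it. That element occurred in 1.77% of 27305 promoter windows of the same length. GC boxes occurred 1, 4 and 3 times in the EPHA2, EPHB4 and EFNB2 windows, at least once in each of the 10 members, and in 42.3% of all windows. The members' windows had a GC content of 43.2% (EPHA4) to 84.8% (EPHB2). All windows were used without matching for GC content, so whether members hold more GC boxes than similar windows was not tested. The motifs did not overlap in the windows shown. The AP-1 motif TGANTCA (6.6% of all windows), the ETS motif CCGGAAG (8.82%) and the E-box CACGTG (6.49%) had no match in the window of any of the 10 members, which says only that these letters are not there. The last 18 bases of the EPHA2 window lie in an exon of GENCODE release 29. All 250 bases of the EFNA1 window lie in exons of that release, so its motif results describe sequence annotated as transcribed. The EPHA1, EFNB1 and EFNA4 windows held 36, 24 and 9 such bases. Only exons of the window's own gene were counted. Overlap of the windows with other genes, such as SLC12A9 at the 5' end of EPHB4, was not examined.

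The EPHA2 gene (Entrez 1969) spans positions 16124337 to 16156087 of chromosome 1 on the minus strand, in the GRCh38 coordinates of GENCODE release 29. It was the most abundant family member, ranked 946 of the 16200 genes by mean TPM. It had 5523, 5187 and 5505 counts in sgKCNQ3 libraries, against 6555, 7238 and 6566 in NC libraries. All 3 sgKCNQ3 libraries lay below all 3 NC libraries. In CPM, EPHA2 averaged 340.1 ± 9.92 in sgKCNQ3 and 434 ± 20.2 in NC (SD, n = 3 each). Its log2 fold change was -0.35 (SE 0.0392, 95% interval -0.43 to -0.27, edgeR adjusted p 2.68e-07), the p-value ranking 102 among the tested genes. The fall of EPHA2 was larger than the median size of change among all called genes, 0.23 on the log2 scale, and 22.7% of called genes changed by more. Per length, EPHA2 stood at 148 ± 6.78 TPM in sgKCNQ3 and 178 ± 8.11 TPM in NC. EPHA2 stayed called lower under each of the 17 alternative settings, with log2 fold changes of -0.38 to -0.26.

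EPHB4, a B-class receptor whose preferred ligand is EFNB2 and which marks veins during vessel development, was higher. Its gene (Entrez 2050) spans positions 100802565 to 100827521 of chromosome 7, also on the minus strand. Its counts were 936, 942 and 928 in sgKCNQ3, against 738, 755 and 703 in NC. The lowest sgKCNQ3 library was above the highest NC library by more than the range within either group. EPHB4 averaged 58.9 ± 0.814 CPM in sgKCNQ3 and 46.8 ± 1.63 CPM in NC (SD, n = 3 each), with a log2 fold change of 0.33 (SE 0.0516, 95% interval 0.22 to 0.44, edgeR adjusted p 3.26e-05). EPHB4 was called higher under all 17 alternative settings, at 0.30 to 0.42. Its 5' end overlaps SLC12A9, a transporter-family gene on the opposite strand, and the labels do not say whether reads were counted by strand. SLC12A9 had 643, 585 and 695 counts in sgKCNQ3 and 556, 624 and 622 in NC and was not called (log2 fold change 0.07, edgeR adjusted p 0.434).

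EPHB2, a receptor that guides axons and positions epithelial cells in the intestinal crypt of mice, was the second most abundant receptor and was not called. It had 2227, 2061 and 2164 counts in sgKCNQ3, against 2150, 2305 and 2237 in NC. The groups overlapped, and the log2 fold change of -0.08 had a 95% interval of -0.16 to 0.0095 (edgeR adjusted p 0.176). With trends over transcript length and GC content removed, EPHB2 was called lower (-0.16, adjusted p 0.00222), and on the TPM scale its difference had the opposite sign (0.02, limma adjusted p 0.760). EPHA4, a receptor that binds both ephrin classes, had 30, 45 and 32 counts in sgKCNQ3 and 40, 36 and 49 in NC. Its groups overlapped, and at this depth the 95% interval of its log2 fold change, -0.66 to 0.17, was wide (edgeR adjusted p 0.383). That fold change was -0.25, against -0.12 without NC replicate 3, -0.13 without sgKCNQ3 replicate 1 and -0.45 without sgKCNQ3 replicate 2. EPHA1, the founding receptor of the family, had 1, 1 and 0 counts in sgKCNQ3 and 1, 0 and 0 in NC, too few to test.

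**Figure D2:**
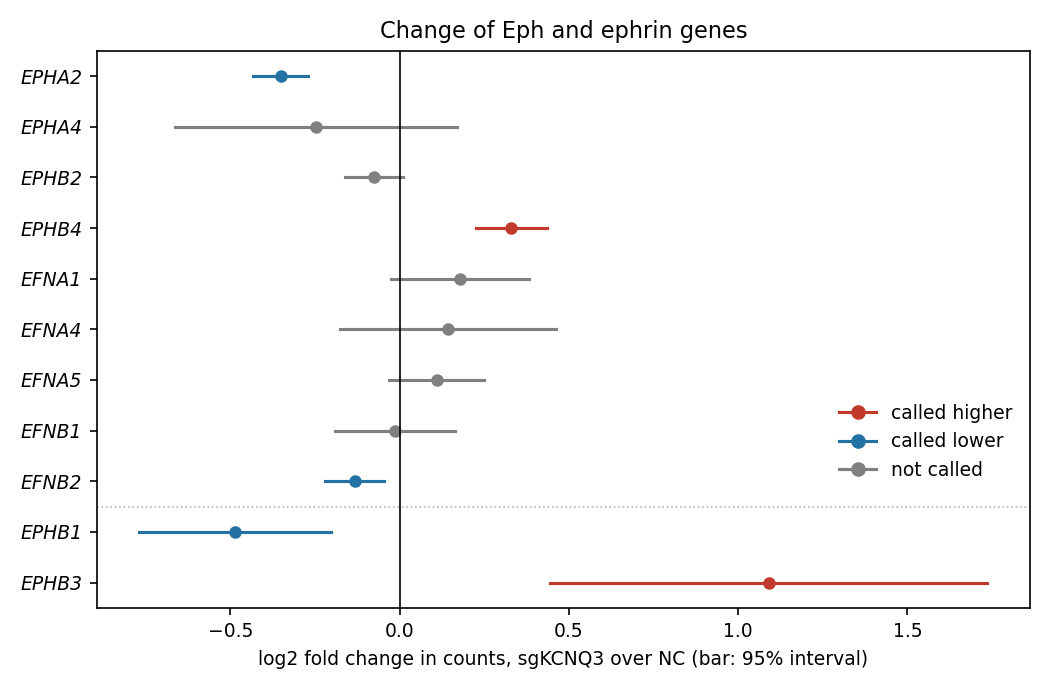
Log2 fold change in counts, sgKCNQ3 over NC, with 95% intervals, for the 9 listed genes that were tested and, below the dotted line, EPHB1 and EPHB3, family genes outside the list. EPHA2 (-0.35) and EPHB4 (0.33) have the intervals farthest from 0 among the listed genes, and EPHB3 (1.09), which passed the filter through the sgKCNQ3 libraries alone, has the widest interval shown.

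EFNB2, the transmembrane ligand of EPHB4 and a marker of arteries, was the most abundant listed ligand. The gene (Entrez 1948) spans positions 106489731 to 106535662 of chromosome 13, on the minus strand. It had 1856, 1924 and 1886 counts in sgKCNQ3, against 2037, 1994 and 2083 in NC. The groups did not overlap in counts or CPM. EFNB2 averaged 119 ± 2.75 CPM in sgKCNQ3 and 130.4 ± 3.89 CPM in NC (SD, n = 3 each), a log2 fold change of -0.13 (SE 0.042, 95% interval -0.22 to -0.05, edgeR adjusted p 0.0186). Of all called genes, 92.7% changed by more than EFNB2. Its call was lost in 8 of 17 alternatives: without NC replicate 1 (edgeR adjusted p 0.0636), NC replicate 3 (0.0993), sgKCNQ3 replicate 1 (0.105) or sgKCNQ3 replicate 3 (0.0596), with DESeq2 (0.0516), with library size alone (0.0846) and on both TPM scales (0.537). In TPM the groups overlapped, at 40.4 ± 0.495 in sgKCNQ3 and 41.5 ± 1.40 in NC.

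EFNB1, the other listed transmembrane ligand, had 244, 217 and 226 counts in sgKCNQ3, against 205, 243 and 235 in NC. Its groups overlapped, and its log2 fold change of -0.015 (95% interval -0.19 to 0.16, edgeR adjusted p 0.913) changed sign in 9 of 17 alternatives.

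The listed A-type ligands EFNA1, EFNA4 and EFNA5 had positive fold changes that were not called. EFNA1, a high-affinity ligand of EPHA2, had 171, 153 and 175 counts in sgKCNQ3, against 150, 137 and 147 in NC. In CPM the lowest sgKCNQ3 library (9.7) lay just under the highest NC library (9.72), so the groups overlapped by one library. The log2 fold change of EFNA1 was 0.18 (95% interval -0.03 to 0.38, edgeR adjusted p 0.185). EFNA1 was called higher with length and GC trends removed (0.27, adjusted p 0.0465) and on log2(TPM + 1) (0.24, limma adjusted p 0.0371). On log2(TPM + 0.1) it was also called higher (0.26, limma adjusted p 0.0365). In the other 14 alternatives EFNA1 was not called, as with DESeq2 (adjusted p 0.393) or without NC replicate 2 (0.13, edgeR adjusted p 0.414). EFNA5 had 398, 386 and 407 counts in sgKCNQ3 and 367, 347 and 372 in NC; its groups did not overlap, but its log2 fold change of 0.11 (95% interval -0.03 to 0.25) was not called (edgeR adjusted p 0.238). EFNA4 had 60, 57 and 66 counts in sgKCNQ3 and 57, 59 and 47 in NC, which overlapped (log2 fold change 0.14, 95% interval -0.18 to 0.46, edgeR adjusted p 0.523). Without NC replicate 3 the log2 fold change of EFNA4 was 0.05 (edgeR adjusted p 0.872). EFNA4 overlaps an annotated EFNA4-EFNA3 readthrough locus, so the assignment of its reads is uncertain.

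Compared per length, the listed receptors together exceeded the listed ligands in every library. Summed receptor TPM was 229.8, 215.4 and 227.5 in sgKCNQ3, against 241.7, 257.7 and 241.8 in NC. Summed ligand TPM was 75.8, 73.3 and 77.5 in sgKCNQ3, against 72.9, 70.2 and 73.6 in NC. The receptor sums of the groups did not overlap, whereas the ligand sums did. The lower receptor sum came mainly from EPHA2, with a mean of 148 TPM in sgKCNQ3 and 178 TPM in NC. Mean TPM was higher in sgKCNQ3 for EPHB4 (23.2, against 17.3) and, with overlapping libraries, for EPHB2 (52.0, against 51.3). EPHA2 made up 66.2% ± 0.846 of the summed receptor TPM in sgKCNQ3 and 71.9% ± 0.585 in NC, EPHB2 made up 23.2% ± 0.504 in sgKCNQ3 and 20.8% ± 0.448 in NC, and EPHB4 10.4% ± 0.335 in sgKCNQ3 and 7.02% ± 0.235 in NC (SD, n = 3 each). Since shares add to a whole, a lower share of EPHA2 raises the others.

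Ratios of TPM between members are given as a description, because they rest on the changes already listed. EPHA2 was 6.39 ± 0.278 times EPHB4 in sgKCNQ3 and 10.2 ± 0.387 times EPHB4 in NC. Against the summed A-type ligands EFNA1, EFNA4 and EFNA5, EPHA2 was 5.40 ± 0.159 times as abundant in sgKCNQ3 and 7.60 ± 0.639 times in NC. The ratio of EPHB4 to EFNB2 was 0.575 ± 0.00997 in sgKCNQ3 and 0.418 ± 0.027 in NC (SD, n = 3 each). No library of one group fell within the range of the other for these 3 ratios.

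**Figure D3:**
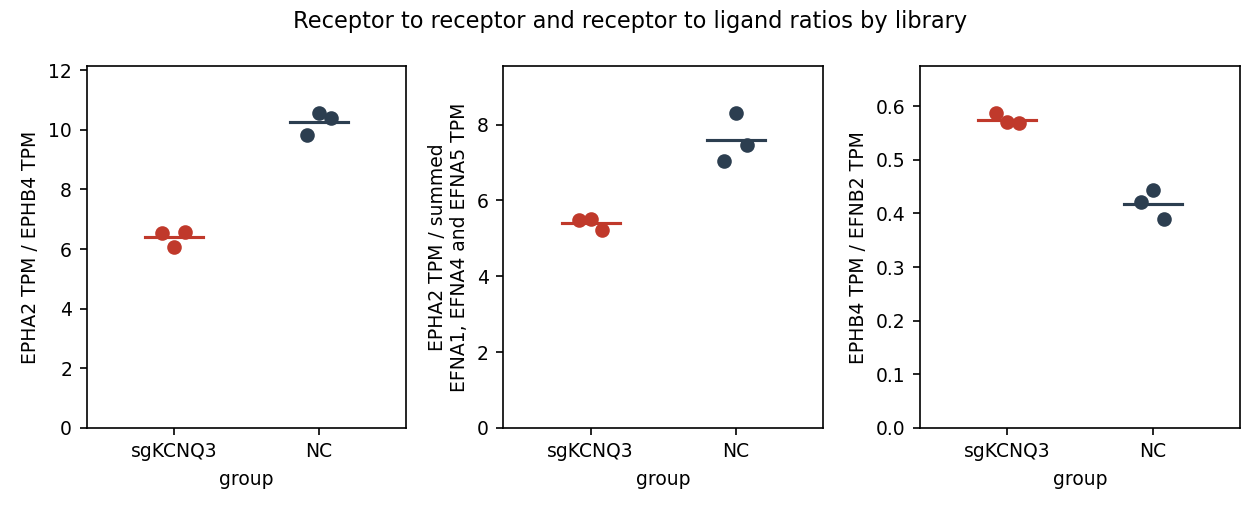
Ratios of TPM in each library (points) with group means (lines), sgKCNQ3 left and NC right, all axes from 0. EPHA2 per EPHB4 and EPHA2 per summed EFNA1, EFNA4 and EFNA5 are lower in the sgKCNQ3 libraries, and EPHB4 per EFNB2 is higher.

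By mean TPM in sgKCNQ3 the listed genes ran EPHA2 (148), EPHB2 (52.0), EFNB2 (40.4), EPHB4 (23.2), EFNA1 (13.3), EFNA5 (7.78), EFNB1 (7.62), EFNA4 (6.48), EPHA4 (0.587) and EPHA1 (0.02). In NC the order was EPHA2 (178), EPHB2 (51.3), EFNB2 (41.5), EPHB4 (17.3), EFNA1 (11.1), EFNB1 (7.23), EFNA5 (6.77), EFNA4 (5.60), EPHA4 (0.653) and EPHA1 (0.01). EFNA5 and EFNB1, neighbours that changed places, had overlapping library values within each group. The libraries of every other pair of neighbours in these orders did not overlap within a group.

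The remaining family genes had group means of at most 2.3 TPM. Of 12 sought, 10 were in the table and 8 passed the filter; EPHA7 and EPHA8 were not analysed here, and EPHA3 and EPHA5 had at most 1 count in any library. EPHB3, like EPHB2 a receptor of the intestinal crypt, had 15, 24 and 22 counts in sgKCNQ3, against 8, 10 and 10 in NC. EPHB3 passed the filter on low counts through the sgKCNQ3 libraries alone, so that its groups had to differ and its values are a description. Its log2 fold change was 1.09 (SE 0.314, 95% interval 0.44 to 1.74, edgeR adjusted p 0.0106) at a level of 0.513 TPM in sgKCNQ3 and 0.227 TPM in NC. On log2(TPM + 1), a scale that shrinks the change of weakly expressed genes, the difference of EPHB3 was 0.30. EPHB1, a receptor that routes retinal axons in the mouse, had 64, 68 and 71 counts in sgKCNQ3, against 87, 110 and 83 in NC, without overlap (log2 fold change -0.49, SE 0.137, edgeR adjusted p 0.00919). EPHB1 was not called without NC replicate 2 (-0.36, edgeR adjusted p 0.0779), with DESeq2 (adjusted p 0.0645) or on the TPM scales (limma adjusted p 0.0647 and 0.0743; -0.25 on log2(TPM + 1)). The other 6, EPHA6, the kinase-inactive receptors EPHA10 and EPHB6, EFNA2, EFNA3 and EFNB3, had group means of 0.433 to 2.3 TPM and log2 fold changes of -0.65 to 0.21, and none was called (lowest edgeR adjusted p 0.118).

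**Figure D4:**
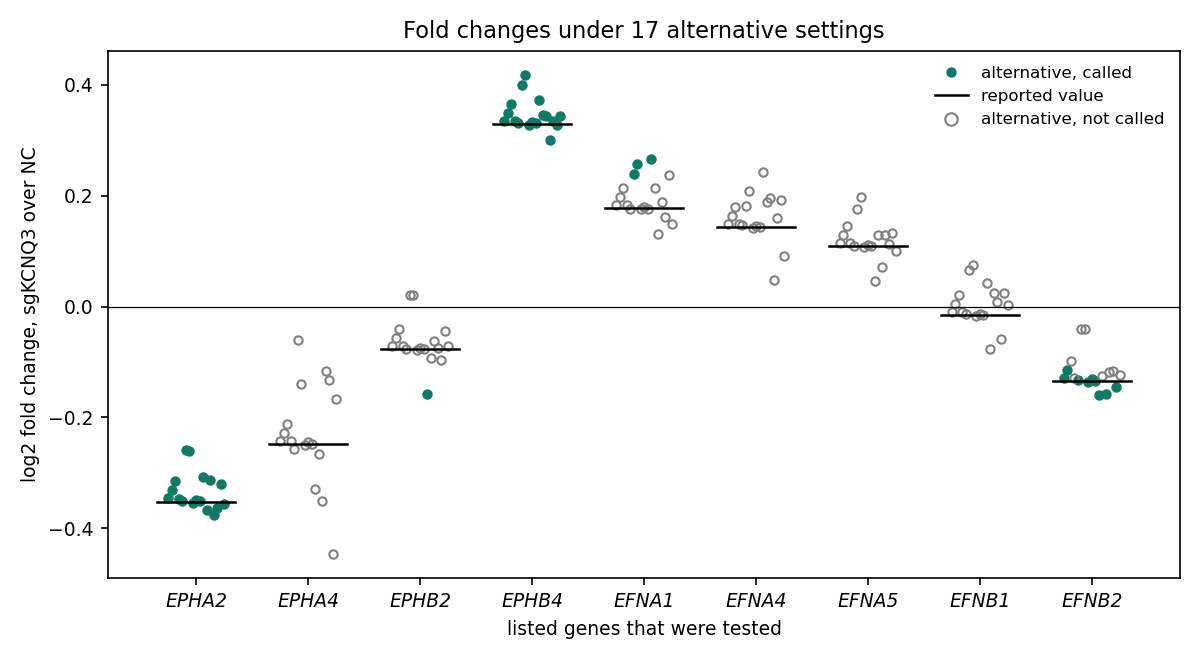
Log2 fold change, sgKCNQ3 over NC, of each tested listed gene in the reported test (black line) and under 17 alternative settings (points, filled where called). EPHA2 and EPHB4 are filled throughout, EFNB2 is filled in 9 of 17, and EFNB1 straddles 0.

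Genes that act with the receptors and ligands were compared as lists. Of 23 tested adaptors, kinases and phosphatases that act at Eph receptors, 6 were called higher and 4 lower (median 0.011). YES1, a Src family kinase, rose to 70.8 ± 3.54 CPM in sgKCNQ3, against 55.5 ± 2.47 CPM in NC (log2 fold change 0.35, edgeR adjusted p 1.74e-05), and LYN, another kinase of that family, rose by 0.34. PTPN11, the phosphatase SHP2, rose by 0.26, the junction protein gene AFDN by 0.27 and the adaptor gene CRK by 0.16. With length and GC trends removed, PTPN11 and AFDN each rose by 0.17 and stayed called. ABL2 (-0.20), a cytoskeletal tyrosine kinase, fell, a call that was lost on the TPM scales (limma adjusted p 0.185), and it stood at -0.31 with length and GC trends removed.

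Of 20 tested genes listed for ephrin reverse signalling and for cleavage of ephrins and Eph receptors, 2 were called higher and 6 lower (median -0.07). That list also holds the junction gene CDH1, which is among the biliary markers as well. ADAM10, the metalloprotease that sheds ephrin-A ligands bound to their receptors, rose to 121 ± 2.29 CPM in sgKCNQ3, against 97.9 ± 1.80 CPM in NC (log2 fold change 0.31, edgeR adjusted p 5.30e-06). With length and GC trends removed, the log2 fold change of ADAM10 was 0.16 and it stayed called. CDH1, E-cadherin, which supports EPHA2 at cell contacts, rose by 0.85 from a low level, at 4.15 ± 0.418 CPM in sgKCNQ3 and 2.30 ± 0.225 CPM in NC, and by 0.48 on log2(TPM + 1). CLDN1 (-0.31), a tight junction protein that can bind ephrin-B1, RGS3 (-0.22), a G protein regulator tied to ephrin-B tails, and the polarity gene PARD6B (-0.28) fell. On the TPM scales PARD6B stood at -0.17 and -0.18 and was not called (limma adjusted p 0.0537 and 0.0538). PSENEN (-0.30), a subunit of the gamma-secretase that cuts ephrin-B ligands after shedding, fell as well. The shares called in the adaptor and the reverse signalling lists were 43.5% and 40%, beside the background of 29.1%. Both lists were chosen with earlier results of these data known, so these shares are a description.

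**Figure D5:**
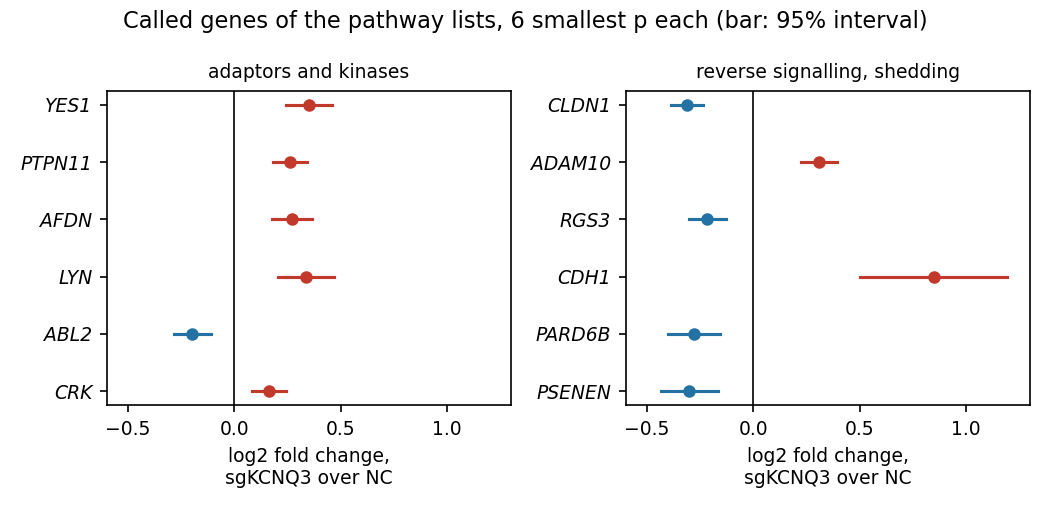
Log2 fold change, sgKCNQ3 over NC, with 95% intervals, of the 6 called genes with the smallest p in each of 2 lists; red is higher and blue is lower in sgKCNQ3. CDH1 (0.85) stands to the right of the rest, which lie between -0.31 and 0.35.

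Across the 6 libraries, the genes outside the family whose log2 CPM followed EPHA2 most closely were NFE2L1, RING1 and REXO1 (Pearson's r 0.998, 0.998 and 0.997, the highest of 8389 genes whose log2 CPM averaged 4 or more). Those 3 were themselves called lower (log2 fold changes -0.12, -0.21 and -0.32). For EFNA1 they were PGRMC1, GPAM and SGCE (r 0.991, 0.987 and 0.984), none of which was called. With 6 libraries in 2 groups, all genes share the group difference and the library scaling, so these values are a description.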

How the data were processed

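Poly(A)-enriched RNA was sequenced in 6 libraries after random-primed reverse transcription, per the labels' protocols. Groups and replicate numbers came from the titles. The authors' estimated counts (expected counts) per gene were deposited without normalization, and the authors' TPM values stood beside them, per the file headers. Genome build GRCh38.p13 is named in the submitters' processing notes; aligner, counter and strand handling: not given in the sources used here. Another 12 per-library columns were not used.

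Rounded counts went into edgeR 4.0.16 (R 4.3.3): filterByExpr (minimum count 10) left 12565 genes, followed by TMM factors, robust quasi-likelihood F tests and Benjamini-Hochberg adjustment over all tested genes, with a threshold of 0.05. SE is the log2 fold change divided by the square root of F; 95% intervals use the test's degrees of freedom. CPM uses TMM-scaled library sizes. With 3 libraries in each group, the smallest exact permutation p of one gene is 0.1. Counting intervals were not used, since the replicate spread covers counting error. The procedure was run on simulated counts in which far fewer genes changed than were called here. That run therefore does not measure the error rate of the reported calls.

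Members and gene lists were chosen with earlier results of these data known. Named genes are the members, KCNQ3, the other family genes, up to 6 called genes with the smallest p per pathway list, and 3 genes most like EPHA2 and EFNA1. One pathway list is not reported here. SLC12A9 was added after its overlap with EPHB4 was seen. Alternatives were scaling by RLE, by upper quartile or by library size alone; DESeq2 1.42.0; limma-voom and limma-trend (limma 3.58.1) on log2(TPM + 1) and log2(TPM + 0.1), no filter, a floor of 2 CPM in 3 libraries, a replicate block, length and GC trends removed (splines with 5 degrees of freedom on the longest coding transcript of GENCODE release 29, found for 12509 tested genes), and each library left out. Promoter windows came from RefSeq's table, which matched all 10 members by symbol. Figures were drawn with matplotlib 3.10.9.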

Additional observations from a re-analysis of the deposited data

How the results depend on the processing

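EPHA2 and EPHB4 kept their direction and call under all 17 alternatives. Of the 10 listed genes, 5 were called with length and GC trends removed in place of 3 (EPHB2 and EFNA1 joined), and 2 to 3 with a library left out. Over all genes, 1257 were called lower with DESeq2, 613 on log2(TPM + 1) and 610 on log2(TPM + 0.1), against 1895; DESeq2 called 2448 in all, against 3658. EPHB2 reversed on log2(TPM + 1) (0.020) and log2(TPM + 0.1) (0.020). EFNB1 reversed with upper quartile scaling (0.0050), library size alone (0.021), log2(TPM + 1) (0.066), log2(TPM + 0.1) (0.075) and length and GC trends removed (0.043), and in 4 of 6 tests without a library (range over all 6 -0.076 to 0.025). KCNQ3 lost its call on the TPM scales only (-0.15 and -0.22). EFNA5 (0.11) stood at 0.07 without NC replicate 2 and at 0.05 with length and GC trends removed. DESeq2 gave no adjusted p for EPHB3, which the filter at 2 CPM removed. The cause of these differences was not tested. Libraries with the same replicate number did not deviate together (r 0.014, -0.098 and 0.0078). Pairs with different numbers had r of -0.080 to 0.065. Such values cannot show whether libraries of the same number were prepared together, which the labels do not say. With the replicate block, 3136 genes and 3 listed members were called. At this depth EPHA1, EPHA3 and EPHA5 could not be tested, and intervals were wide for genes under 100 counts, such as EPHA4 and EFNA4.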
